A study of Mus musculus with 30 samples.

Results

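Siglecf+ neutrophil-like cells are a group of tumour-infiltrating cells defined by transcript counts in single-cell RNA from MOC1E1 tumours. A cell was a member when it held no unique molecular identifier (UMI, 1 counted RNA molecule) of Cd3e, Cd3d, Cd3g, C1qa, C1qb or C1qc, at least 1 UMI of Csf3r, Il1r2 or Mmp9, and at least 1 UMI of Siglecf. This gave 245 cells among 2372 cells that passed the same gate, 11528 MOC1E1 cells and 29768 cells in the whole series. The other 2127 gated cells held no Siglecf UMI and were the comparison cells.

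MOC1E1 (MOC1esc1 in part of the labels) is a mouse oral squamous carcinoma line grown in C57BL/6J mice, and the cells are labelled as immune cells that had infiltrated the tumours. The mice were injected intraperitoneally on days 3, 6 and 9 after inoculation with anti-PD-1, with anti-CTLA-4 (both block inhibitory receptors of T cells) or with an isotype control. Each treatment has 1 RNA library, so no difference between treatments has a replicate check, and the sources used here do not say how many mice went into a library. Bulk RNA of 3 MOC1 and 3 MOC1E1 whole tumours from untreated C57BL/6J mice was used as a separate readout. Values of the 3 libraries are given in the order isotype, anti-PD-1, anti-CTLA-4. There were 154, 85 and 6 members and 926, 885 and 316 comparison cells.

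Siglec-F is a sialic acid-binding receptor of the mouse with an inhibitory motif in its cytoplasmic tail, best known as a surface marker of eosinophils and alveolar macrophages. Neutrophils are short-lived granulocytes that leave the bone marrow carrying the chemokine receptor CXCR2, and in mouse lung tumours and injured tissue some of them are known to gain Siglec-F after they enter the tissue. Ltc4s makes leukotriene C4, a lipid mediator, and Ffar2 encodes a receptor for short-chain fatty acids; both were used to label the group along with Siglecf.

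The members carried neutrophil transcripts and almost none of the defining transcripts of eosinophils. Levels are given as CPM (counts per 1e6), the UMIs of a gene scaled to the total UMIs of the same class of cells in the same library. S100a8, an abundant calcium-binding protein of neutrophils, stood at 14600, 12460 and 42980 CPM in members of the 3 libraries. Its partner S100a9 stood at 15850, 14040 and 39240 CPM. Cxcr2, the chemokine receptor of neutrophils, stood at 609.5, 507.6 and 786.8 CPM. Ly6g, often used to sort neutrophils, gave 3 UMIs among the 639674 of all members and 34 among the 8710295 of comparison cells. It was thus near the floor in both classes. Of the comparison UMIs, 7484755 came from cells with a monocyte marker (listed below). These raw counts therefore cannot show whether members hold less Ly6g than neutrophil-like comparison cells. Of the eosinophil markers, members held 2 UMIs of Ccr3, the eotaxin receptor, 2 of Alox15, and none of Il5ra, the interleukin 5 receptor, or Prg2, a granule protein. Ear2 gave 31 UMIs, and Cd300lf, which neutrophils also carry, 392 UMIs at 612.8 CPM. Epx, Ear1, Ear6 and Prg3 have no row in the table. Mast cell and basophil markers summed to 10 UMIs over the members, 8 of them in 1 cell. None of the 245 members, and none of the 2127 comparison cells, had a productive T cell receptor contig, against 73.3 to 76.0% of cells with a Cd3 UMI. The gate leaves out every cell with a Cd3 UMI, so this contrast follows in large part from the rule. No member barcode was shared between libraries, while 13 to 26 barcodes of all cells were.

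Siglecf+ cells were most common with isotype and least common with anti-CTLA-4. They made up 14.26% of gated cells with isotype (95% exact binomial interval 12.2 to 16.5), 8.76% with anti-PD-1 (7.06 to 10.7) and 1.86% with anti-CTLA-4 (0.687 to 4.01). The differences from isotype were -5.50 percentage points with anti-PD-1 (-8.24 to -2.74) and -12.4 with anti-CTLA-4 (-14.8 to -9.49). These intervals cover counting error only, not the spread between mice. The gated cells themselves fell in the same order, from 31.1 to 19.7 and 10.3% of all cells, so members were 4.43, 1.72 and 0.192% of all cells. T cells served as a background, since they should lack the gene: 0.569, 1.00 and 0.715% of cells with a Cd3 UMI held a Siglecf UMI, at median depths of 4713, 4886 and 4508 UMIs against 2286, 2840 and 1214 in gated cells. The isotype and anti-PD-1 shares lay above that background, while the anti-CTLA-4 interval reached down to it.

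Depth differed between the libraries, so each cell was also thinned to 1000 UMIs. The thinned shares were 8.08, 5.65 and 1.44% of 903, 849 and 208 cells deep enough, against 0.290, 0.289 and 0.194% of T cells, and 177, 121 and 114 gated cells were too shallow to enter. With thinning, the anti-PD-1 difference was -2.43 points, with an interval from -4.82 to -0.0460. Cells with at least 2 Siglecf UMIs numbered 83, 25 and 0 in the same order, and 0 of 322 gated cells with anti-CTLA-4 allows a share of up to 0.932% by the limit of 3 counts, or 1.14% as the exact binomial upper bound. In each setting tried for the share (the gate, the thinning depth, the denominator), the point value was lower with anti-PD-1 than with isotype and lowest with anti-CTLA-4. The 6 anti-CTLA-4 members held 1 Siglecf UMI each.

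**Figure D1:**
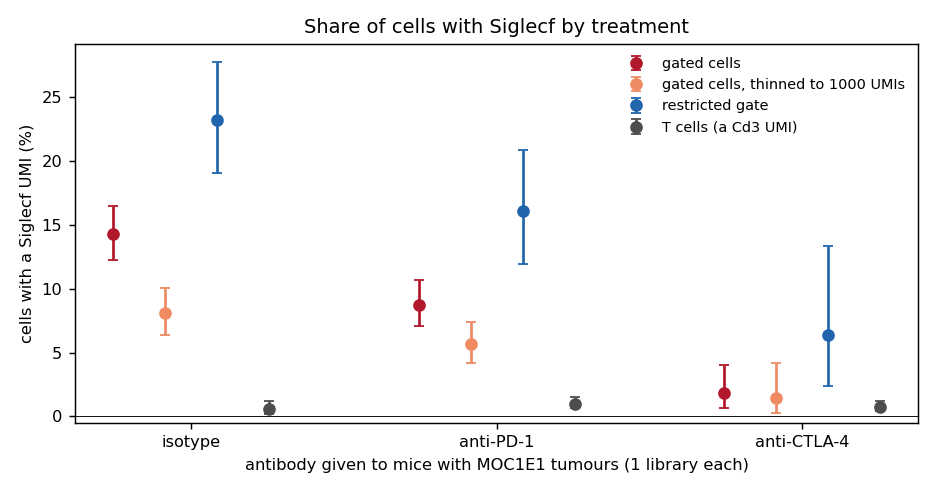
Percentage of cells with at least 1 Siglecf UMI in the 3 MOC1E1 libraries, with 95% exact binomial intervals (counting error only), for all gated cells, gated cells thinned to 1000 UMIs, the restricted gate (at least 2 gate genes and no monocyte marker) and T cells. All gated cells fall from 14.26 to 8.76 and 1.86%, while T cells stay at or under 1.00%.

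The members held 441 Siglecf UMIs in all, and 137 of them held exactly 1. Siglecf stood at 790.3, 532.3 and 590.1 CPM in members of the 3 libraries, at most 8 UMIs in a cell; it chose the cells and is given as a description. Ltc4s stood at 550.1, 387.9 and 98.35 CPM in members and 49.16, 23.23 and 3.77 CPM in comparison cells, and was seen in 50.6% of members against 6.44% of comparison cells. Ffar2 stood at 289.3, 127.9 and 0 CPM in members and 48.89, 21.76 and 40.23 CPM in comparison cells, and was seen in 26.9 and 8.18% of cells. Against the comparison cells of the restricted gate described below, which hold no monocyte marker, the gaps were smaller. There Ltc4s stood at 590.5 CPM in members and 159.2 CPM in comparison cells, and Ffar2 at 279.6 and 156.9 CPM. With anti-CTLA-4, Ffar2 was at 0 CPM in members and 142.8 CPM in comparison cells of that gate. Over all 245 members, 45 members held Ltc4s and Ffar2, and 100 held neither. Il1r2, the decoy receptor for interleukin 1 and a gate gene, stood at 1756, 1436 and 2065 CPM in members and 262.8, 282.4 and 393.5 CPM in comparison cells. In the restricted gate Il1r2 stood at 2227 CPM in members and 1426 CPM in comparison cells. The other gate genes went the other way there, Csf3r at 1354 and 2644 CPM and Mmp9 at 863.8 and 1288 CPM.

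Cells just inside and just outside the Siglecf threshold differed in the other labels as well, given here without a test. Ltc4s rose from 32.8 CPM in cells with 0 Siglecf UMIs to 410, 555 and 574 CPM in those with 1, 2 and at least 3. Prss2, an anionic trypsinogen, stood at 4.48, 102, 185 and 366 CPM in the same order, and Gpc3, a cell-surface proteoglycan, at 5.40, 66.9, 268 and 337 CPM. In cells with 0 Siglecf UMIs in the restricted gate these levels were higher, at 159.2 CPM for Ltc4s, 27.3 CPM for Prss2 and 32.1 CPM for Gpc3, so the step at the threshold was smaller there. The median depth of gated cells with 0, 1, 2 and at least 3 Siglecf UMIs was 2223, 1901, 2454.5 and 2886.5 UMIs, so depth moved with the Siglecf count above 1 UMI. The library mix moved as well: isotype cells were 926 of 2127, 71 of 137, 45 of 60 and 38 of 48 in the same order. The parts of depth and library in these values were not tested. Members with Ltc4s and members without it also differed: Adamdec1, a secreted metalloprotease-like protein, stood at 293.7 CPM in the 124 members with Ltc4s and 34.2 CPM in the 121 without. Retnlg, a resistin-like protein of circulating neutrophils, went the other way, at 20.2 and 307.8 CPM over the pooled libraries. With isotype the Retnlg gap was small, at 29.8 and 59.2 CPM in 3 and 4 cells. It was wide with anti-PD-1, at 0 and 498.3 CPM (0 and 8 cells), and 1 anti-CTLA-4 cell without Ltc4s held the gene. The library mix also differed, with 86, 37 and 1 cells with Ltc4s and 68, 48 and 5 without. S100a8 stood at 14810 and 13570 CPM, and the median depths were 2409 and 2000 UMIs.

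The members varied in their neutrophil transcripts. At least 2 of the 3 gate genes were present in 196 members, and 49 held only 1. Those 49 held 4692 CPM of S100a8 against 16880 CPM in the 196, and 2234 against 45.9 CPM of the MHC class II gene H2-Ab1, which 7 of the 49 cells held. A UMI of a monocyte marker (Ly6c2, Ccr2, Fn1, F13a1, Vcan, Ms4a4c or Csf1r) was present in 68 members, whose median depth was 2987 UMIs against 2111 in the other 177. Those 68 still held 13130 CPM of S100a8, against 14970 CPM in the 177, and 34 of them held Ltc4s, against 90 of the 177. Doublets were not called, and 3 members held a UMI of the B cell gene Cd79a. At least 2 UMIs of the listed lymphocyte, mast cell, basophil, eosinophil, dendritic cell and macrophage markers were present in 161 members (65.7%). The share was 74.1% in comparison cells. H2-Aa and H2-Ab1 were left out of this count, but Cd300lf, which neutrophils also carry, was in it. Without such cells 56, 26 and 2 members were left in the 3 libraries.

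The comparison cells of the rule were mixed to a greater degree. A monocyte marker was present in 58.4% of them against 27.8% of members, and those 1241 cells held 22720 CPM of Lyz2, the lysozyme of monocytes and macrophages, against 771.1 CPM in the other 886. Lyz2 stood at 1149, 1671 and 491.7 CPM in members and 19890, 20600 and 13380 CPM in all comparison cells. Ly6c2, a surface protein of inflammatory monocytes, stood at 20.7, 94.9 and 0 CPM in members and 1393, 1440 and 1449 CPM in comparison cells. Summed UMIs of members and comparison cells in each of the 3 libraries were compared with edgeR's quasi-likelihood test, with the library as a block. Of 8512 genes, 1477 or 17.4% were called, taking adjusted p-values up to 0.05: 474 (5.57%) higher and 1003 (11.8%) lower in members. With library totals in place of TMM scaling 2332 genes (27.4%) were called and the split turned to 1509 (17.7%) higher and 823 (9.67%) lower, the median of all genes moving from -0.02 to 0.29 on the log2 scale. All 8 monocyte markers tested, 6 of 8 macrophage markers and 4 of 6 dendritic cell markers were lower in members.

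The genes with the largest falls in that test included several monocyte markers. Fn1, F13a1, Vcan, Ccr2, Chil3, Ly6c2, Arg1, Lyz2, Stxbp6 and Cxcl9 were lower in members, with log2 differences from -6.38 for Fn1 (SE 0.56, edgeR adjusted p = 1.35e-26) to -4.11 for Cxcl9. Mcpt2, a mast cell protease, gave no UMI in members and 1, 162 and 782 UMIs in comparison cells of the 3 libraries. The listed mast cell and basophil markers, which do not include Mcpt2, came largely from single comparison cells. With anti-PD-1 1 cell held 53 of their 113 UMIs, and with anti-CTLA-4 1 cell held 64 of 68. The largest rises included those of Prss2, Cd81, Col15a1, Ptgs1, Entpd3, Rcan1, Exoc3l4, Camkk1, Slco4a1, Ltf and Agap1, from 4.81 for Prss2 (SE 0.34, edgeR adjusted p = 3.31e-42) to 2.52 for Agap1. A second comparison was therefore added after these values were seen, in which both classes had to hold at least 2 gate genes and no monocyte marker. This restricted gate left 88, 45 and 6 members and 291, 235 and 88 comparison cells, with median depths of 2235 and 1268.5 UMIs.

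Against neutrophil-like comparison cells, 666 of 3253 genes (20.5%) were called, 255 (7.84%) higher and 411 (12.6%) lower in members. The entry filter limits this split as well, with 841503 UMIs in comparison cells and 318356 in members. With library totals in place of TMM 770 (23.7%) were called, 477 (14.7%) higher and 293 (9.01%) lower, and the median of all genes moved from -0.07 to 0.16 on the log2 scale. Still, 548 of the 666 calls were called again in the same direction. The number of calls depended on the library left out: 18 genes were called without the isotype library, 91 without the anti-PD-1 library and 732 without the anti-CTLA-4 library. DESeq2 called 148 of the 666, all in the same direction. When cells were also limited to 1500 to 4000 UMIs, which left 101 members and 200 comparison cells at median depths of 2431 and 1953 UMIs, 164 of 2144 genes (7.65%) were called, 42 (1.96%) higher and 122 (5.69%) lower. Of these, 162 had been called with the restricted gate in the same direction. Of 1477 genes called with all gated cells, 633 were tested in the restricted gate, 142 were called again in the same direction, 42 were called in the opposite direction, and 245 of the 633 had the opposite sign.

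**Figure D2:**
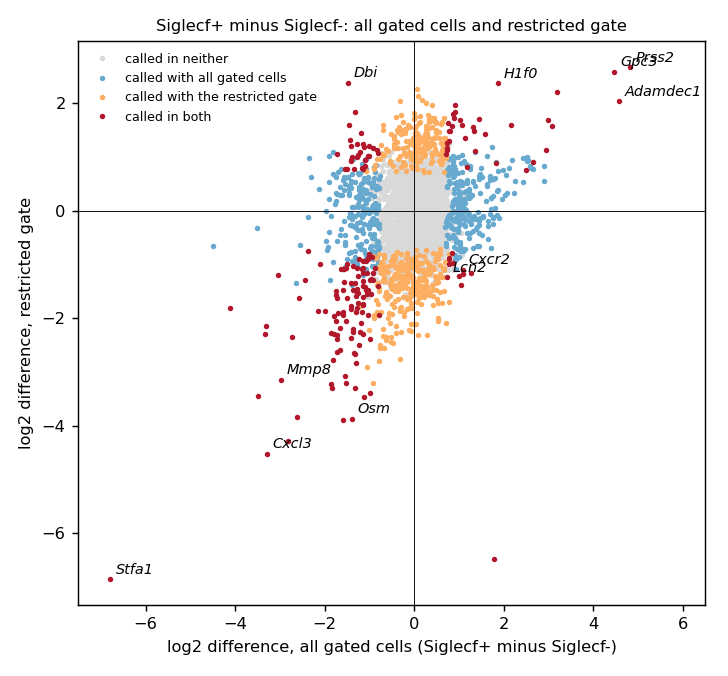
Log2 difference of each gene (Siglecf+ minus Siglecf-) with all gated cells on the horizontal axis and with the restricted gate on the vertical axis, for genes tested in both; colours show in which comparison a gene was called. Prss2, Gpc3 and Adamdec1 lie high on both axes, while Cxcr2 and Lcn2 are higher in members on one axis and lower on the other.

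Leaving out Ltc4s and Ffar2, which were given no test, 9 genes were higher in members with all gated cells, with the restricted gate and within the depth window. Among them were Prss2, Gpc3, Adamdec1, Cd81, H1f0, Rgs10, 1810011H11Rik and 1810043H04Rik, and 7 of the 9 were also called by DESeq2 with the restricted gate. In the restricted gate Prss2 stood at 262.0, 169.4 and 98.35 CPM in members and 42.2, 17.3 and 0 CPM in comparison cells, a log2 difference of 2.68 (SE 0.42, edgeR adjusted p = 2.04e-08). The members were higher in every library, although the anti-CTLA-4 value is 1 UMI. Gpc3 stood at 290.1, 201.2 and 0 CPM in members and 37.3, 34.5 and 0 CPM in comparison cells (log2 difference 2.59, SE 0.40, edgeR adjusted p = 1.11e-08), so its evidence comes from isotype and anti-PD-1 alone.

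H1f0, a linker histone typical of cells that no longer divide, stood at 631.6, 444.7 and 491.7 CPM in members and 89.4, 112.2 and 10.98 CPM in comparison cells (log2 difference 2.37, SE 0.31, edgeR adjusted p = 3.13e-12). The lowest member value lay above the highest comparison value, but the 5 anti-CTLA-4 UMIs came from 1 of the 6 cells, one with no S100a8 UMI. Cd81, a tetraspanin, stood at 126.3, 211.7 and 98.35 CPM against 27.3, 37.4 and 0 CPM (log2 difference 2.21, SE 0.44, edgeR adjusted p = 1.93e-05). Rgs10, which shortens G protein signals, stood at 449.2, 455.3 and 393.4 CPM against 91.9, 112.2 and 65.9 CPM (log2 difference 1.96, SE 0.30, edgeR adjusted p = 1.3e-08). Adamdec1 stood at 154.4, 285.9 and 0 CPM against 42.2, 46.0 and 0 CPM, again without a UMI with anti-CTLA-4. The other large rises in the restricted gate were those of Dbi, Ndufa11, Ndufs8, Cct2, Tcp1, Nme2, Sptssa and Lsm5, at log2 differences of 1.79 to 2.38. Each of these 8 was without a call or lower with all gated cells, where Dbi (-1.47) and Nme2 (-1.33) were called lower.

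Genes known from circulating neutrophils were among those lower in members. Retnlg stood at 32.8, 423.5 and 1475 CPM in members and 2928, 2700 and 856.7 CPM in comparison cells (log2 difference -3.29, SE 0.36, edgeR adjusted p = 2.28e-17). The anti-CTLA-4 value went against the other 2 libraries, and its 15 UMIs came from 1 of the 6 members. Mmp8, a collagenase of neutrophil granules, behaved likewise, at 14.0, 0 and 393.4 CPM (4 UMIs) in members and 211.1, 146.7 and 98.9 CPM in comparison cells (log2 difference -3.14, SE 0.52, edgeR adjusted p = 1.1e-07; DESeq2 adjusted p = 0.0795).

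Osm, the cytokine oncostatin M, stood at 9.36, 84.7 and 98.35 CPM in members and 397.3, 491.8 and 1186 CPM in comparison cells (log2 difference -3.87, SE 0.41, edgeR adjusted p = 2.82e-18). Cd14, a receptor for bacterial lipopolysaccharide, stood at 46.8, 63.5 and 98.35 CPM against 469.3, 468.8 and 1428 CPM (log2 difference -3.46, SE 0.38, edgeR adjusted p = 2.28e-17). Both were lower in members of every library, with no overlap. Adam8, a membrane protease, Clec12a, an inhibitory lectin, and Cxcl3, a neutrophil chemokine, differed by -3.90, -3.83 and -4.52 on the log2 scale. The remaining large falls were those of Klra2, Wfdc21, Scnn1a, Padi4, which citrullinates histones, and Jdp2, from -3.44 for Klra2 to -3.21 for Jdp2. Stfa1, a stefin, gave no UMI in members of the restricted gate and 32, 14 and 16 UMIs in comparison cells. In all, 41 genes were lower in members with all gated cells, with the restricted gate and within the depth window, and 34 of these were called by DESeq2 as well; S100a6, Ccl6, Plaur, Tlr2, Tgm2, Smox and Kdm6b were among them.

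**Figure D3:**
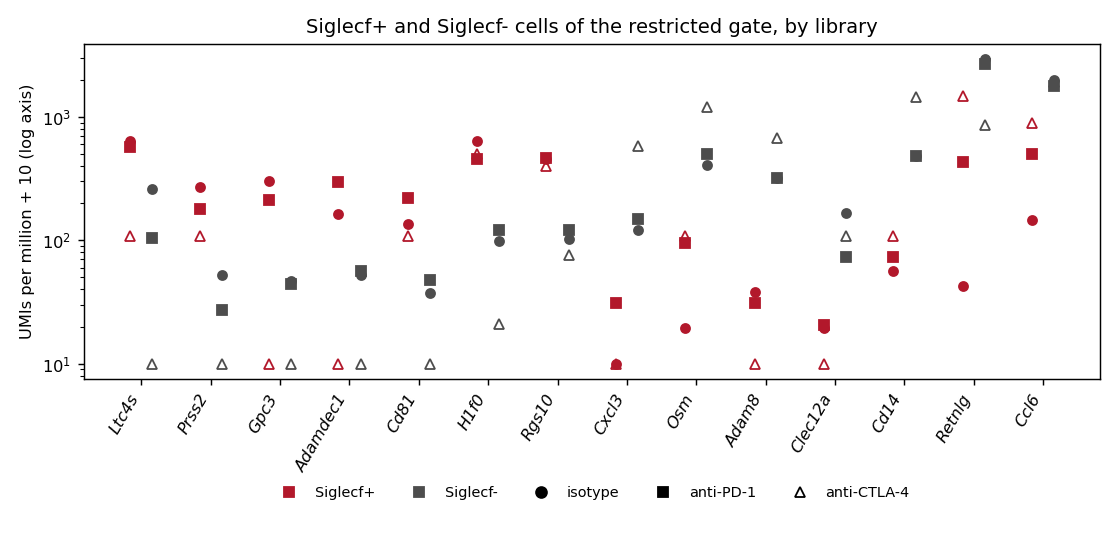
CPM plus 10, on a log axis, for Siglecf+ (red) and Siglecf- (grey) cells of the restricted gate in each of the 3 libraries; circles, squares and triangles stand for the 3 libraries in the order isotype, anti-PD-1, anti-CTLA-4. H1f0 and Rgs10 are higher in members of every library (the anti-CTLA-4 H1f0 point is 1 cell), and Osm and Cd14 are lower in members of every library.

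Gene lists are described below by counts in the restricted gate, beside the 7.84% of genes higher and 12.6% lower over all genes tested, and by their median log2 difference, which was -0.07 over all genes. Of 13 neutrophil markers tested, 11 were lower and none higher (median -1.43), and 11 were also lower with library totals. S100a8 (-0.66, SE 0.32, edgeR adjusted p = 0.121) and S100a9 (-0.66) were not called. With all gated cells, 5 of 14 neutrophil markers were higher and 2 lower, so the direction for neutrophil markers differed between the comparisons. Cxcr2 was higher in members by 1.10 on the log2 scale with all gated cells (SE 0.31, edgeR adjusted p = 0.00482) but differed by -1.09 with the restricted gate (SE 0.29, edgeR adjusted p = 0.00171).

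Type I interferon genes stood lower as a list. Of 21 tested, 16 were lower and none higher (median -1.14), while 14 were lower and 1 higher with library totals. Ifit3b (-2.51), Slfn4 (-1.89), Ifi204 (-1.88) and Rsad2 (-1.60) had the largest differences, and the depth window called 6 of them. Summed over the list, members held 8539, 12490 and 14460 CPM and comparison cells 12170, 24340 and 22320 CPM in the 3 libraries. Mx1 was tested with all gated cells alone (-3.54).

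Of 14 chemokine and cytokine genes, 8 were lower and none higher, among them Cxcl3, Osm, Ccl6 (-2.77), Cxcl2 (-1.71) and Il1b (-1.48); Il1a (-0.12) was not called. With all gated cells Ccl9 (-2.67) and Cxcl16 (-3.69) were lower and Il1a (1.76) higher. Of 20 migration and adhesion receptors, 10 were lower and none higher, including Fpr1 (-2.80), a receptor for bacterial formyl peptides, Cd44 (-1.43), C5ar1 (-1.23) and Cxcr4 (-1.07). Itgax, an integrin chain, differed by 0.29 and was not called, though it was higher by 1.29 with all gated cells. Of 12 granule genes, 7 were lower, led by Wfdc21, Padi4 and Mmp8; Lcn2 differed by -1.24 in the restricted gate and by 0.73 with all gated cells, both called. Ltf, lactoferrin, differed by 0.95 (edgeR adjusted p = 0.0673). The depth window called 6 of 14 chemokine and cytokine genes, 5 of 19 receptors and 3 of 11 granule genes, all lower.

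Among leukotriene and prostanoid genes, Ptgs1, cyclooxygenase 1, was higher (1.13, SE 0.40, edgeR adjusted p = 0.0268), and 3 of the 7 tested were lower: Ptgs2, cyclooxygenase 2 (-1.56), Pla2g7 (-1.02) and Alox5ap, the 5-lipoxygenase activating protein (-0.90). Alox5 itself differed by 0.33 and was not called, against 2.23 with all gated cells. The window called none of the 7. Of 11 genes linked to T cell suppression, 5 were lower and none higher: Arg2, an arginase (-2.21), Lilr4b (-1.93), Entpd1 (-1.39), Cd274, which encodes PD-L1 (-1.07), and Lilrb4a (-0.82). With all gated cells Nt5e was higher (2.03) and Arg1 (-4.92) and Cd86 (-1.90) lower. Of 13 hypoxia and angiogenesis genes, 3 were lower: Ndrg1 (-2.25), Vegfa (-2.001) and Hilpda (-1.47), while Egln3 (-0.26), Ankrd37 (-0.14) and Mxi1 (0.14) were not called and had been higher by 1.45, 1.46 and 1.12 with all gated cells. The summed level of the hypoxia list was 5310, 6702 and 1377 CPM in members and 3958, 6597 and 5261 CPM in comparison cells, so the sum was higher in members of the first 2 libraries. In the depth window 4 of 9 T cell suppression genes and 2 of 11 hypoxia genes were called, all lower.

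Lower in members were 4 of 16 glycolysis genes, including Slc16a3 (-1.24) and Hk3 (-1.65), although the list's median changed sign with library totals (-0.26 to 0.02). The summed level of the glycolysis list was higher in members with isotype (15140 against 10490 CPM) and anti-PD-1 (15910 against 13830 CPM), and lower with anti-CTLA-4 (4622 against 12280 CPM). Lower too were 9 of 19 transcription factors, among them Klf2 (-1.60), Fosl2 (-1.58) and Klf6 (-1.34), and 5 of 10 iron and heme genes, led by Slc40a1 (-1.51) and Fth1 (-1.41). Of 11 dissociation and heat shock genes, 3 were lower, including Dusp1 (-2.003), and Hspe1 was higher (1.14). Of 19 lysosome genes, 1 was higher and Ctsd and Psap were lower, the last at -0.74; Lgals3 (-0.64) and Npc2 (-0.11) were not called, and the list's median changed sign with library totals (-0.19 to 0.13). Apoe was higher (1.06) and Olr1 lower (-2.55) among 8 lipid genes. Hcar2 (-1.43) and Gpr35 (-1.30) were lower of 3 metabolite receptors, where Gpr84 differed by 0.24. Hspa5 was the single call, lower, of 9 stress genes, and Mcl1, Pim1 and Bcl2l1 were lower of 14 survival genes. Clec12a, Cd300ld and Cd33 were lower of 7 Siglec and lectin genes, and Siglece, the neutrophil Siglec, differed by -0.45 without a call. Within the depth window none of 16 glycolysis, 9 iron and heme, 12 survival or 3 lipid genes was called. Lower there were 3 of 17 transcription factors and 2 of 10 dissociation and heat shock genes. So were 1 of 7 stress genes, 1 of 3 metabolite receptors and 1 of 6 Siglec and lectin genes. Of 17 lysosome genes, 1 was higher and none lower. The window also left fewer cells.

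Between treatments, the members' RNA is described without a test. With anti-PD-1, 112 of 2216 genes with at least 50 UMIs over both libraries (5.05%) differed at least 2-fold from isotype, 63 (2.84%) higher and 49 (2.21%) lower. Several of the highest ratios came from single cells. Ccl7 (288.9 against 0 CPM) had all 70 UMIs in 1 cell. Gzma (891.3 against 93.0 CPM) had all 216 of its UMIs in 1 cell. H2-Ab1 (1160 against 131.7 CPM), Ccl6 (1436 against 165.3 CPM), Ctsc (326.0 against 31.0 CPM) and Lgals1 (330.1 against 36.2 CPM) had 137, 160, 56 and 54 UMIs in their top cell. In the restricted gate Ccl7 and Gzma were at 0 in members of both libraries and Ctsc at 42.4 and 28.1 CPM, while Ccl6 stood at 487.0 and 135.7 CPM. Among the lowest ratios, Gpr84, a receptor for medium-chain fatty acids, stood at 57.8 CPM with anti-PD-1 (95% exact Poisson interval 31.6 to 96.9) and 201.5 CPM with isotype (159.2 to 251.4), in 10 and 31 cells. Cd37, Ppp1r9b, Cep83, Spp1 and Morc3 were the others, and 50 of the 94 Spp1 UMIs of isotype members came from 1 cell.

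Interferon genes and Hilpda stood higher with anti-PD-1. Of 17 type I interferon genes counted, 14 were higher in anti-PD-1 members, with a median log2 ratio of 0.58 against -0.10 over all genes. Ifitm3 stood at 2773 against 1387 CPM, Bst2 at 668.5 against 258.3 CPM and Isg15 at 1205 against 805.8 CPM. Comparison cells of the restricted gate showed 21 of 21 higher, with a median of 1.24, and members of that gate 10 of 14, with a median of 0.61. Over all genes counted, 937 of 2213 were higher in those comparison cells (median -0.08) and 504 of 1090 in those members (median -0.03). In members of the whole gate 903 of 2218 were higher, with Ltc4s and Ffar2 counted. Heat shock and dissociation genes moved too, 7 of 10 higher in members with a median of 0.89, and Hspa1a stood at 441.5 against 85.2 CPM; their part in the other values was not tested. Hilpda, a lipid droplet protein induced by low oxygen, stood at 685.0 against 178.2 CPM in members and 1444 against 312.9 CPM in restricted comparison cells.

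The 6 anti-CTLA-4 members held 10168 UMIs in all, so 1 UMI is 98.35 CPM, and 473 of 1417 genes (33.4%) lay at least 2-fold from isotype, 170 (12%) higher and 303 (21.4%) lower. Their glycolysis genes were low: the 16-gene sum was 4622 CPM (95% Poisson interval 3396 to 6147) against 13050 CPM in isotype members. Ldha, lactate dehydrogenase, gave 1 UMI and 98.35 against 1472 CPM, and Tpi1 98.35 against 888.5 CPM. The hypoxia list summed to 14 UMIs, 1377 against 4318 CPM. In comparison cells with anti-CTLA-4 the glycolysis list stood at 8499 against 6244 CPM with isotype. Neutrophil markers summed to 95400 CPM in these members, with 386 of the 970 UMIs in 1 cell, against 36870 CPM in isotype members. Fgr, Eef2, Rap1b and Lars2 were the other lowest ratios, with 0 or 1 UMI each. Among the highest, Spp1 (33 UMIs) and Ly6a (16 UMIs) came from 1 cell each and Cxcl10 from 2. Lcn2 (13 UMIs), Ptgs2 (9 UMIs) and Fam107b (12 UMIs) came from 3, 3 and 5 cells. With TMM scaling 574 genes passed 2-fold, 33 higher and 541 lower, so the directions over all genes depended on the scaling.

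**Figure D4:**
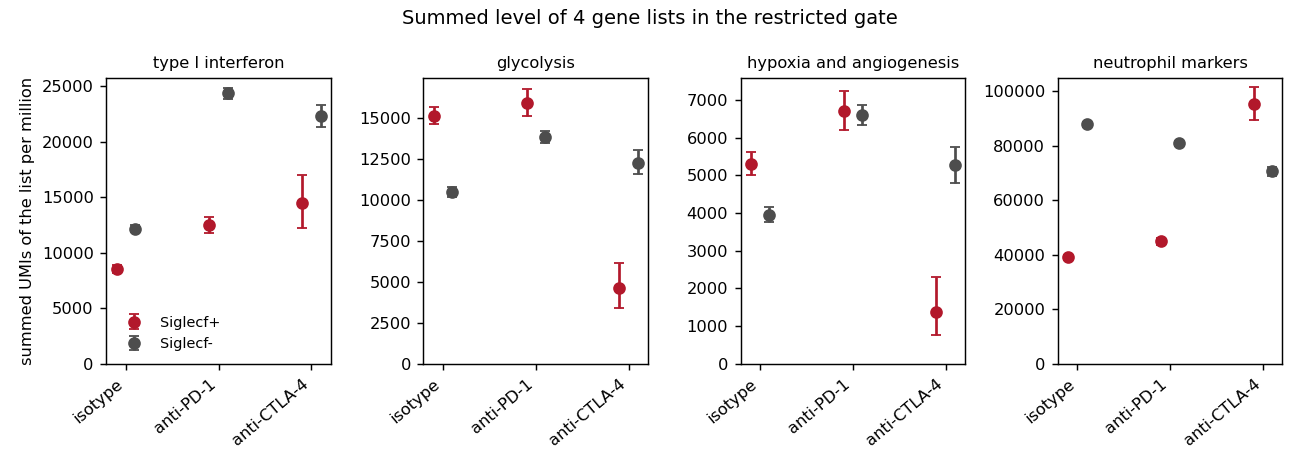
Summed CPM of 4 gene lists in Siglecf+ (red) and Siglecf- (grey) cells of the restricted gate in each library, with 95% exact Poisson intervals (counting error only). Interferon genes are lower in members in all 3 libraries, and the glycolysis sum of the 6 anti-CTLA-4 members, 4622 CPM, is the lowest in its panel.

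Whole-tumour RNA held less Siglecf in MOC1E1 than in MOC1. Siglecf stood at 1.5, 2.69 and 1.49 TPM (transcripts per 1e6) in the 3 MOC1 tumours and 0.52, 0.09 and 0.53 TPM in the 3 MOC1E1 tumours. The difference was -1.06 on the log2(TPM + 1) scale (SE 0.25, limma adjusted p = 0.0248); at 1 TPM this scale understates the fold. The adjusted p was 0.0473 to 0.054 without 1 MOC1E1 tumour, and Siglecf fell under the filter without any 1 MOC1 tumour. Siglecf passed that filter, at least 1 TPM in 3 libraries, through the MOC1 tumours alone. With all tumours and no filter the limma adjusted p was 0.0479. Of all 15125 genes tested, 2820 (18.6%) were called, 1014 (6.7%) higher and 1806 (11.9%) lower in MOC1E1. Siglecf is also an eosinophil gene, and the 3 listed eosinophil markers that passed the filter, Alox15, Ear2 and Cd300lf, were all lower in MOC1E1. Ccr3, Il5ra and Prg2 stayed at or under 0.29 TPM in every tumour, and Epx, Ear1, Ear6 and Prg3 were listed at 0. The part of eosinophils in the Siglecf value was not tested. In bulk tumours, fewer cells of a type and less RNA per cell cannot be told apart, and tumour cells can express the same genes.

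The neutrophil genes of the gate were lower in MOC1E1 tumours as well. Csf3r, the receptor for granulocyte colony-stimulating factor, stood at 8.77, 11.55 and 8.19 TPM in MOC1 and 1.94, 0.98 and 1.93 TPM in MOC1E1 (log2 difference -2.02, SE 0.22, limma adjusted p = 0.00145). S100a8 stood at 72.25, 94.70 and 105.77 against 16.57, 4.45 and 9.15 TPM (log2 difference -3.20, SE 0.38, limma adjusted p = 0.00208). Of 11 neutrophil markers tested, 9 were lower and none higher. Ffar2 stood at 2.45, 2.90 and 3.05 against 1.65, 0.34 and 1.57 TPM (log2 difference -0.86, SE 0.29, limma adjusted p = 0.0762) and was not called. Ltc4s stood at 3.96, 6.33 and 3.55 against 4.29, 3.37 and 2.91 TPM and overlapped (log2 difference -0.29, SE 0.23, limma adjusted p = 0.412). Of the 9 genes higher in members, 6 were tested, and H1f0 was the 1 called, lower in MOC1E1 (log2 difference -0.42, SE 0.10, limma adjusted p = 0.0246). The MOC1E1 tumours of this comparison were untreated, unlike the mice behind the single-cell libraries, so the levels are set side by side only.

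**Figure D5:**
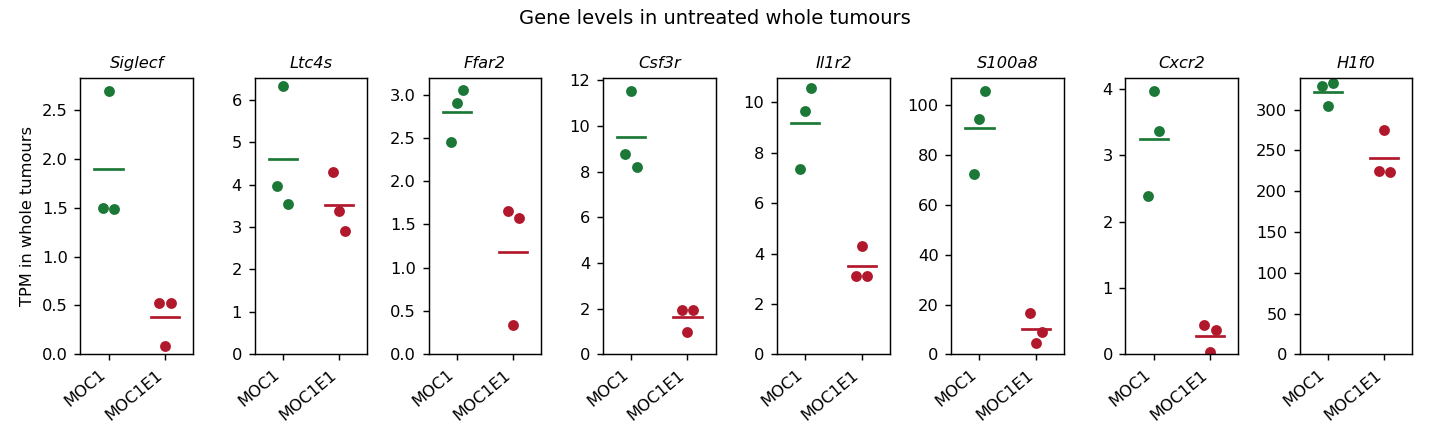
TPM of 8 genes in 3 MOC1 and 3 MOC1E1 whole tumours; points are tumours and lines are means, and each panel has its own axis from 0. The means of Siglecf, Csf3r, Il1r2, S100a8 and Cxcr2 are lower in MOC1E1, while the Ltc4s values of the MOC1 and MOC1E1 tumours overlap.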

How the data were processed

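The authors deposited the single-cell data as UMI counts, whole numbers for each gene in each barcode. Per the submitters' processing notes the series used Cell Ranger 3.0.2 and Seurat, and bulk RNA Trimmomatic 0.36, kallisto 0.46.0 and DESeq2. The bulk tumour table holds TPM as deposited by the authors, so bulk depth is unknown. Per the labels' protocols, libraries came from the 10x 5' kit. The deposited MOC1E1 cells hold at least 500 UMIs and 244 genes and at most 5% mitochondrial UMIs, and the libraries held 17309104, 26937406 and 14766019 UMIs in the order isotype, anti-PD-1, anti-CTLA-4. No cell was removed and doublets were not called. T cell receptor UMI counts, deposited by the authors, were used for the presence of a contig only.

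UMIs were summed per library and class, genes with at least 50 UMIs over the 6 sums were kept, and edgeR 4.0.16 (quasi-likelihood, TMM, library block, R 4.3.3) was fitted with Benjamini-Hochberg adjustment over all tested genes. The classes pair within a library because both come from the same tube. Siglecf, the gate genes, Ltc4s and Ffar2 stayed in the fit but out of every count of calls. Bulk values were fitted as log2(TPM + 1) with limma 3.58.1 for genes of at least 1 TPM in 3 libraries. P-values of the class comparison measure the spread of the class difference over the 3 libraries. Each library had another treatment, so that spread includes treatment and may in part be technical. P-values of the bulk comparison measure the spread between tumour libraries of the same model, which may also be technical. Treatment ratios use 0.5 UMI as a pseudocount. DESeq2 1.42.0 was an alternative. Other tools were Python 3.11.15, numpy 2.4.6, scipy 1.17.1, pandas 2.3.3 and matplotlib 3.10.9.

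Genes named for the class comparison are the 12 largest rises and falls among called genes with at least 50 CPM in the higher class and 1 direction in all libraries, plus up to 3 called members of each list; the same ranking was applied to the restricted gate. Further list members, and genes called in all 3 comparisons, were chosen after their values were seen. Some genes that the rule names are not reported here. Treatment genes are the 6 highest and 6 lowest ratios with at least 100 CPM and intervals apart. The members and lists were chosen with earlier results of these data known. On simulated counts edgeR called 68.4% of 4-fold and 12.1% of 2-fold genes with all gated cells, and 91.2% and 34% with the restricted gate.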

Additional observations from a re-analysis of the deposited data

Results flagged for a closer look

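Gated Siglecf+ cells also appeared in 2 libraries that no comparison above uses. The MOC1 isotype library held 9 such cells among 46 gated and 4943 deposited cells, or 0.182% of cells, where a count of 0 would allow up to 0.0607%. The MOC1 anti-PD-1 library held 4 among 41 gated and 3890 deposited cells, or 0.103% of cells, where a count of 0 would allow up to 0.0771%. The MOC1 anti-CTLA-4 library held 0 of 9 gated cells, and the 2 MOC22 libraries 0 of 0 and 0 of 1. MOC1 and MOC22 RNA samples are labelled as T cells, so these counts say nothing of how common such cells were in those tumours.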

How the results depend on the processing

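Calls between the classes depended on the cells compared. With all gated cells, 1477 calls became 931 with DESeq2, 2332 with library totals, 434 after thinning, 630 with at least 2 gate genes, 122 without other cell types' markers, and, in settings chosen after seeing the data, 715 without monocyte markers, 666 with the restricted gate and 164 within the depth window. Leaving out 1 library gave 52 to 1977. The restricted gate's 666 became 164 within the window, 148 with DESeq2, 281 without the block, and 18 to 732 with 1 library left out; the depth window also leaves fewer cells. The cause of these changes was not tested.

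Shares moved with the setting and kept their order. With isotype they were 8.08, 6.39, 22.0, 18.9, 7.69, 4.43, 22.4 and 23.2% (1000 and 500 UMIs, 2 gate genes, no other markers, 2 Siglecf UMIs, all cells, no monocyte marker, restricted gate). With anti-PD-1 they were 5.65, 2.99, 15.2, 11.3, 2.58, 1.72, 15.1 and 16.1% for the same settings, and 6.62% at 2000 UMIs. With anti-CTLA-4 they were 0.311% at 500 UMIs, 4.38% with 2 gate genes, 0% with 2 Siglecf UMIs, 0.192% of all cells and 6.38% with the restricted gate. The anti-PD-1 difference moved to -2.43 points (1000 UMIs) and -2.71 (all cells). The anti-CTLA-4 difference moved to -6.64 (1000 UMIs), -6.08 (500), -17.6 (2 gate genes), -17.0 (no other markers), -7.69 (2 Siglecf UMIs), -4.24 (all cells), -18.9 (no monocyte marker) and -16.8 points (restricted gate).

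Genes past 2-fold within members numbered 397 at 20 UMIs, 20 at 200 UMIs, 41 after thinning, 29 without other markers and 49 in the restricted gate with anti-PD-1, against 112. With anti-CTLA-4 they numbered 1259, 76, 131, 137 and 208, against 473. Bulk calls numbered 1273 to 2645 with 1 tumour left out, against 2820. No paired analysis was possible because the bulk columns carry numbers that the labels do not, so the planned replicate block was not run.

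Some genes named from all gated cells changed sign. Without monocyte markers these were Ankrd37 (-0.35), Bcl2a1a (-0.16), Cxcr2 (-0.93), Ddit3 (-0.90), Egln3 (-0.38), Il1a (-0.24), Lcn2 (-1.0), Prdx1 (0.29), Siglece (-0.27) and Tfrc (-0.049). With the restricted gate they were Ankrd37 (-0.14), Cxcr2 (-1.09), Ddit3 (-0.71), Egln3 (-0.26), Hspa8 (0.30), Il1a (-0.12), Lcn2 (-1.24), Prdx1 (0.78) and Siglece (-0.45). Within the window they were Ankrd37 (-0.33), Bcl2a1a (-0.25), Cxcr2 (-0.67), Ddit3 (-0.99), Egln3 (-0.66), Gpr84 (-0.051), Hspa8 (0.16), Il1a (-0.23), Lcn2 (-1.13), Prdx1 (0.14) and Siglece (-0.16). Without other markers they were Alox5 (-0.37), Cxcr2 (-0.92), Ddit3 (-0.94), Dnajb1 (-0.13), Hsp90b1 (0.34), Lcn2 (-1.43), Mxi1 (-0.079), Prdx1 (0.11) and Siglece (-0.11). With 2 gate genes they were Cxcr2 (-0.61), Ddit3 (-0.20) and Lcn2 (-0.85), and after thinning Lcn2 (-0.44). Of the 24 largest rises and falls of the restricted gate, none changed sign in those of its 7 alternatives where it was tested. Its other genes were not followed this way. These 24 were chosen as called with 1 direction in all libraries, and the alternatives reuse the same cells, so a change of sign was unlikely beforehand. Many were not tested in each alternative: without the isotype library 7 stayed the same and 1 was weaker, and without anti-PD-1 14 stayed the same. Depth limits the anti-CTLA-4 members most, at 10168 UMIs.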

Other observations

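A Siglecf UMI was also found in 69 MOC1E1 cells outside the gate. Of these, 42 held a Cd3 UMI, 13 held a C1q UMI without Cd3, and 14 held neither and none of the gate genes. Ltc4s stood at 59.4 CPM in the 42, at 182.0 CPM in the 13 and at 0 CPM in the 14, against 481.5 CPM in the members. S100a8 stood at 610.5, 1341.3 and 719.2 CPM against 14243.2 CPM, and Lyz2 at 151.3, 5317.3 and 2769.7 CPM against 1336.6 CPM.

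Members with only 1 gate gene were not poorer in every gene that set the members apart. Prss2 stood at 202.4 CPM in those 49 cells and at 173.5 CPM in the 196 with at least 2 gate genes, and Rgs10 at 441.0 and 432.8 CPM. Ltc4s went the other way, at 245.8 and 546.5 CPM. No test was made of these values.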
